A study of Homo sapiens with 36 samples.

Results

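The genes described here are 47 genes of the lysosome and of autophagy, taken by their symbols from the 37549 gene symbols in the counts. They comprise the TFEB family of transcription factors (3 genes), proteins of the lysosomal membrane and its proton pump (11), lysosomal hydrolases and their cofactors (16), autophagy receptors and ATG8 proteins (5), factors of autophagosome initiation, phosphatidylinositol 3-kinase activity and conjugation (7), and WIPI and trafficking factors (5). RNA-seq of total RNA was available for the leukaemic B-cell lines MEC1, in which p53 is mutated, and JVM2 and EHEB, in which p53 is wild-type. MEC1 was exposed for 48 h, JVM2 for 72 h and EHEB for 96 h, each to the vehicle DMSO, 50 µM fludarabine, 5 µM ibrutinib or 10 µM idelalisib. Each of these 12 groups held 3 libraries, and nothing states that the 3 came from separate cultures, so p values measure only the spread between these libraries. Values of a group are given in a fixed order of its libraries, a, b and c. Each line is a single model, and the effect of line cannot be told apart from that of exposure time.

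As background, the lysosome is the acidic organelle in which a cell digests proteins, lipids and sugars, and macroautophagy brings cytoplasmic cargo to it inside a double membrane vesicle. TFEB and TFE3 are basic helix-loop-helix factors that the kinase complex mTORC1 holds in the cytoplasm in fed cells. When mTORC1 is inactive they enter the nucleus and bind an E-box, the CLEAR element, in promoters of lysosomal and autophagy genes. Fludarabine is a purine analogue that blocks DNA synthesis, ibrutinib inhibits Bruton tyrosine kinase, and idelalisib inhibits phosphatidylinositol 3-kinase delta, which lies upstream of mTORC1 in B cells.

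Promoter windows of RefSeq on build GRCh38.p14, each covering the sequence around 1 transcription start per gene, were matched by symbol to 35 of the 47 genes. The E-box core CACGTG, which reads the same on both strands, was present in 7 of them (20%), against 7.43% of all 27305 windows and 9.56% of the 13178 windows of genes tested here. The longer forms TCACGTG or CACGTGA, each of which holds the core, were in the same 7 windows (20%), against 3.82% of all windows and 5.35% of those of tested genes. The 7 genes are 3 of the 5 membrane and pump genes with a window and 4 of the 11 hydrolase genes, while no window of the other 4 roles held the core. The stretches that hold the cores are MCOLN1 (chr19:7522568-7522630, plus strand), LAMP1 (chr13:113297032-113297258, plus strand), ATP6V0D1 (chr16:67481196-67481231, minus strand), GAA (chr17:80101490-80101570, plus strand), CTSA (chr20:45891278-45891330, plus strand), NEU1 (chr6:31862927-31862962, minus strand) and CTSD (chr11:1763954-1763989, minus strand). They are printed in the direction of transcription because the responses of these 7 genes are set against those of the others later, and the capitals mark each core.
MCOLN1: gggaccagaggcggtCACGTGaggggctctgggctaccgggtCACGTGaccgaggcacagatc
LAMP1: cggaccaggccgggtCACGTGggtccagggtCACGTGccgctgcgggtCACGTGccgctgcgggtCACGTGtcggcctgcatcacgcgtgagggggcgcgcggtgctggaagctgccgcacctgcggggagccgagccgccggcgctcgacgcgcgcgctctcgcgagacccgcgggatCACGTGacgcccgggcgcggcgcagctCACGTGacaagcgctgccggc
ATP6V0D1: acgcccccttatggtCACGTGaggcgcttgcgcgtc
GAA: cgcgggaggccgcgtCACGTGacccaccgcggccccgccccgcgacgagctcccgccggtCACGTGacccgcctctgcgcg
CTSA: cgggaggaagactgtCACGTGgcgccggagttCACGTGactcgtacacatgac
NEU1: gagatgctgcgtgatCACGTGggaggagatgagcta
CTSD: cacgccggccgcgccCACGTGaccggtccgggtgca

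LAMP1 held 6 cores, the first base of which lay at −192, −176, −159, −142, −28 and −1 from the RefSeq start. The next most were the 2 cores each of MCOLN1 (−41 and −14), GAA (−76 and −31) and CTSA (−42 and −25). NEU1 (−126), CTSD (−47) and ATP6V0D1 (−59) had 1 each. A match describes the letters in the window and not a bound factor.

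The libraries held 26590705 to 53538925 counts (median 42114145), and a gene was tested where it passed a filter on low counts, which left 17516, 17508 and 17748 genes in MEC1, JVM2 and EHEB. Of the 47 genes, 44 were tested in MEC1 and 45 in each of JVM2 and EHEB. CTSL and ATP6V0D2 were listed at 0 in every library but 1 each, an EHEB library with fludarabine, in which either gene had 3 counts, and were not tested. MITF had at most 50 counts in a library and was not tested in MEC1. All 8 B-cell markers examined (such as PAX5) were detected in every group, with a summed level of 737.4 to 2347 CPM (counts scaled to the library's normalised size), while CD14, LYZ and CD163 of monocytes stayed at or under 0.3971, 0.174 and 0.06973 CPM. The summed monocyte list ran from 6.81 to 63.81 CPM and was mostly ITGAM, and a summed T-cell list ran from 16.9 to 59.8 CPM. The part of either list in the results was not tested. The DMSO and fludarabine libraries carry numbers from other ranges than the ibrutinib and idelalisib libraries, so for both inhibitors the drug and the library range cannot be told apart, and only idelalisib against ibrutinib lies within a range. In these bulk data, fewer cells of a kind and less RNA per cell cannot be told apart.

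Levels in DMSO were compared between genes as CPM per kb of annotated exons (mean ± SD, n = 3 libraries). PSAP, the precursor of the saposins that help hydrolases to act on lipids, was the highest of the 47 genes whatever the line, with 374 ± 9.33, 138 ± 2.71 and 105 ± 4.13 for MEC1, JVM2 and EHEB. At the other end of the tested genes stood MITF, at or under 0.0672 CPM per kb, the lowest in each line. MCOLN1, which encodes the lysosomal calcium channel mucolipin, was also low, at 1.04 ± 0.283, 0.995 ± 0.0901 and 1.704 ± 0.187, with GABARAPL1 below it in JVM2 (0.770 ± 0.187) and GAA (1.34 ± 0.0717) and GLA (1.62 ± 0.246) below it in EHEB. TFEB stood at 10.01 ± 0.448, 17.3 ± 0.784 and 18.1 ± 2.13 CPM per kb and its relative TFE3 at 13.4 ± 0.222, 26.5 ± 1.03 and 11.8 ± 0.855. Per kb, TFEB exceeded TFE3 in EHEB, and TFE3 exceeded TFEB in MEC1 and JVM2, by more than the SD of either. The SD does not cover the choice of length, here all annotated exons, 6722 bases for TFEB and 4207 for TFE3. In CPM of the same libraries TFEB was the higher in each line, at 67.3, 116 and 122 against 56.2, 111 and 49.5. In MEC1 and JVM2 the order of these genes thus depended on the length used.

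**Figure D1:**
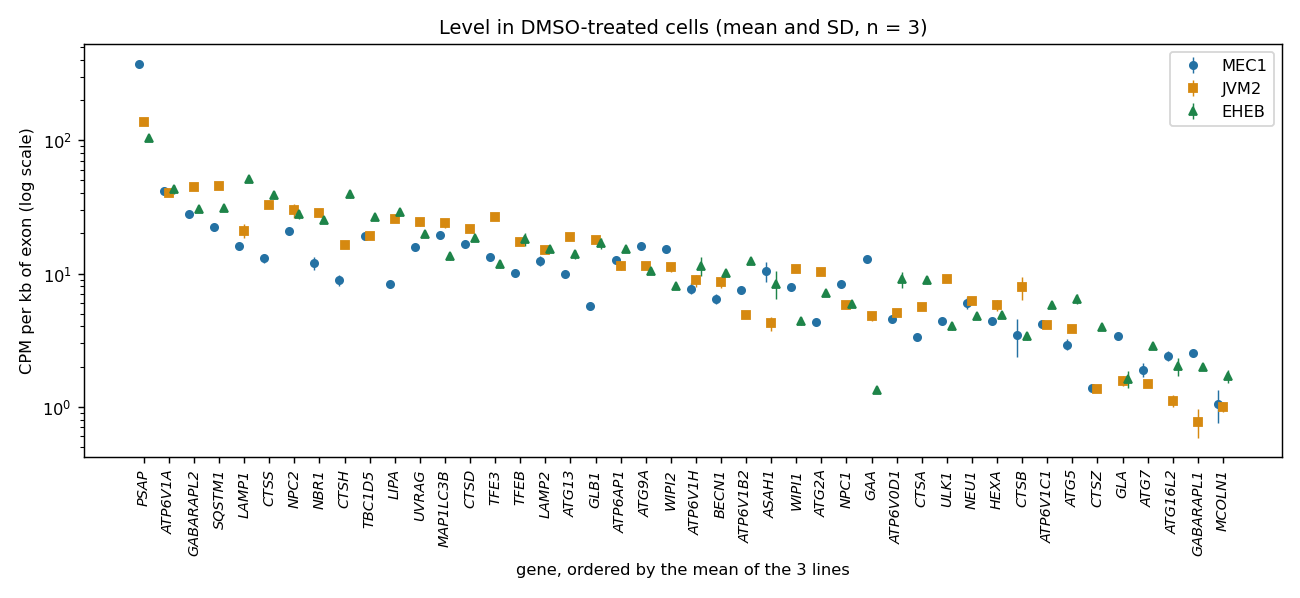
Level in DMSO of 44 of the 47 genes in MEC1, JVM2 and EHEB, as CPM per kb of exon on a log axis, with points at the mean and bars at ± SD (n = 3 libraries). PSAP is the highest gene in each line, at 374, 138 and 105, and MCOLN1 lies at the low end, between 0.995 and 1.704.

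Between the DMSO-treated lines, which also differ in exposure time, 24 of the 47 genes were higher and 11 lower in JVM2 than in MEC1, 26 higher and 10 lower in EHEB than in MEC1, and 19 higher and 16 lower in EHEB than in JVM2 (edgeR quasi-likelihood test, adjusted p under 0.05). Of all genes tested, 63.8%, 67.4% and 59.6% were called in these 3 comparisons. GAA, which encodes the alpha-glucosidase that breaks down glycogen in lysosomes, differed widely between the lines. Its log2 difference was −1.43 ± 0.078 (adjusted p = 4.25e-07) for JVM2 against MEC1 and −3.26 ± 0.085 (adjusted p = 4.87e-09) for EHEB against MEC1. MITF, at under 1 CPM in every DMSO library, had a larger fitted difference for EHEB against MEC1, 3.45 ± 1.14 (adjusted p = 0.0244). PSAP, like GAA, was lower in both, by −1.43 ± 0.045 (adjusted p = 1.38e-08) and −1.83 ± 0.045 (adjusted p = 3.77e-09). Several hydrolases had the reverse order. In EHEB against MEC1, the log2 difference was 2.15 ± 0.082 (adjusted p = 3.83e-08) for the aminopeptidase cathepsin H (CTSH), 1.79 ± 0.065 (adjusted p = 2.78e-08) for the acid lipase LIPA and 1.58 ± 0.074 (adjusted p = 1.39e-07) for cathepsin S (CTSS), the protease that trims the MHC class II invariant chain.

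With fludarabine, 13 of the 44 tested genes rose and 15 fell in MEC1, 19 of 45 rose and 11 fell in JVM2, and 19 of 45 rose and 6 fell in EHEB. Of all genes tested, 21.2% rose and 22.7% fell in MEC1, 23.9% and 23.3% in JVM2, and 18.4% and 19.2% in EHEB. The median log2 fold change of the 47-gene list was −0.0053, 0.15 and 0.16, against 0.056, 0.056 and 0.020 over all genes tested. Since these genes are expressed more than most, they were also set against genes with a mean of at least 10 CPM. Of those, 18.7%, 25.5% and 20.1% rose and 35.2%, 34.0% and 27.9% fell, beside 12, 18 and 17 rises and 15, 11 and 6 falls among 42, 41 and 41 of the genes described. The summed B-cell markers went from 1295 to 1364 CPM with DMSO to 1082 to 1096 CPM with fludarabine in MEC1, from 1468 to 1491 to 737.4 to 810.5 CPM in JVM2 and from 1873 to 1939 to 1021 to 1138 CPM in EHEB. The summed monocyte markers went the other way, from 6.81 to 8.68 to 25.1 to 28.8 CPM in MEC1, from 10.8 to 13.6 to 39.3 to 40.4 CPM in JVM2 and from 20.1 to 24.5 to 53.3 to 63.8 CPM in EHEB. The mitochondrial share of counts was also higher, at 0.396 to 0.608% with DMSO and 0.792 to 1.06% with fludarabine in MEC1, 0.420 to 0.467% and 0.768 to 1.16% in JVM2, and 1.27 to 1.66% and 2.28 to 2.66% in EHEB. The part of the markers and of this share in the results was not tested. Scaling by library size alone moved the median of all genes by 0.25, 0.20 and 0.11 on the log2 scale in MEC1, JVM2 and EHEB, and the split of rises and falls to 20 and 3, 26 and 4, and 23 and 4. With a filter at a mean CPM of at least 5 the MEC1 split also turned, to 17 and 11.

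With ibrutinib, falls outnumbered rises in each line. In MEC1 11 genes rose and 21 fell, where 23.7% of all genes rose and 23.9% fell. In JVM2 7 rose and 19 fell, where 14.5% of all genes rose and 15% fell. In EHEB 1 rose and 12 fell, where 8.5% rose and 11.2% fell. The medians of the list were −0.26, −0.13 and −0.11, against 0.060, −0.0014 and 0.0095 over all genes. With idelalisib, 12 rose and 20 fell in MEC1 (27.6% and 27.4% of all genes), 11 rose and 19 fell in JVM2 (21.6% and 22.6%), and 9 rose and 9 fell in EHEB (15.1% and 18.2%), with medians of −0.17, −0.18 and −0.056 against 0.081, 0.026 and 0.013.

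Against genes with a mean of at least 10 CPM, the excess of falls was smaller. With ibrutinib 35.0%, 21.5% and 16.8% of such genes fell in MEC1, JVM2 and EHEB, beside 20 of 42, 17 of 41 and 10 of 41 of the genes described, and 23.9%, 19.8% and 10.9% rose, beside 11, 7 and 1. With idelalisib 40.8%, 31.3% and 26.5% fell, beside 19, 17 and 9, and 26.8%, 25.1% and 17.4% rose, beside 12, 10 and 8. The falls with idelalisib in MEC1 and EHEB were therefore near the share of genes at such levels. With library size scaling the splits became 6 and 6 for ibrutinib in EHEB, 14 and 15 for idelalisib in JVM2, and 15 and 8 for idelalisib in EHEB, where the median of all genes moved by 0.10 in each. With a mean CPM of at least 5 the idelalisib splits were 16 and 16 in MEC1 and 15 and 9 in EHEB. The 3 drugs of a line share its 3 DMSO libraries.

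With the inhibitors the B-cell and monocyte sums moved mainly in MEC1 and JVM2. In MEC1 the B-cell sum, 1295 to 1364 CPM with DMSO, stood at 2134 to 2347 CPM with ibrutinib and 2145 to 2184 CPM with idelalisib, and the monocyte sum at 29.7 to 33.3 and 42.6 to 45.7 CPM. In JVM2 the B-cell sum was 1692 to 1721 and 1762 to 1804 CPM and the monocyte sum 17.2 to 18.9 and 36.04 to 39.6 CPM. In EHEB the B-cell sum was 1877 to 2058 CPM with ibrutinib, which overlapped DMSO, and 2041 to 2118 CPM with idelalisib, and the monocyte sums of 21.6 to 23.9 and 23.5 to 27.2 CPM both overlapped DMSO. The part of these markers in the inhibitor results was not tested.

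**Figure D2:**
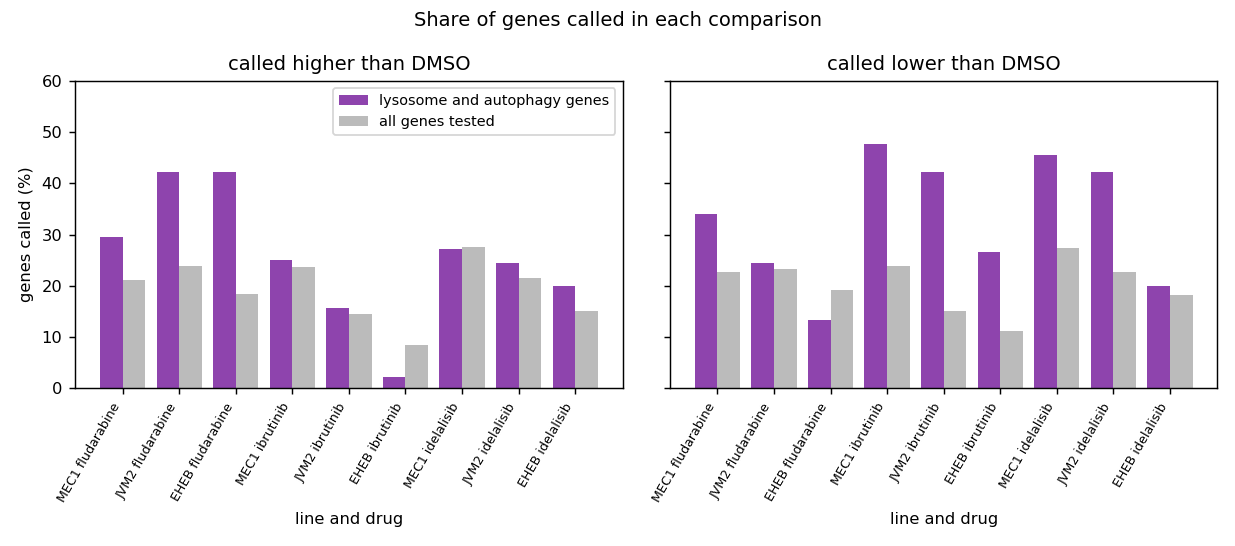
Share (percent) of the tested lysosome and autophagy genes and of all genes tested that were higher (one panel) or lower (the other) than DMSO at an edgeR adjusted p under 0.05, in 9 comparisons of a drug with DMSO. For fludarabine in EHEB 19 of 45 genes were higher and 6 lower, and for ibrutinib in EHEB 1 was higher and 12 were lower.

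By role, the rises with fludarabine lay mostly in the lysosome itself. Of the 10 tested membrane and pump genes, 5, 8 and 6 rose and 1, 2 and 0 fell in MEC1, JVM2 and EHEB. Of the 15 hydrolase and cofactor genes, 6, 7 and 7 rose and 4, 3 and 2 fell. The 5 receptors and ATG8 genes rose in 0, 0 and 2 cases and fell in 2, 1 and 0. Of the 7 initiation, kinase and conjugation genes 1, 3 and 2 rose and 3, 1 and 2 fell, and of the 5 WIPI and trafficking genes 1, 1 and 1 rose and 3, 2 and 1 fell. With ibrutinib the receptors and ATG8 genes fell in 4, 5 and 2 cases and rose in 0, 0 and 1. The hydrolases fell in 7, 7 and 6 and rose in 5, 2 and 0. The membrane and pump genes fell in 2, 4 and 3 and rose in 3, 4 and 0. The WIPI and trafficking genes fell in 5, 1 and 1 and rose in 0, 0 and 0. With idelalisib the WIPI and trafficking genes fell in all 5 cases in MEC1 but in 1 and 2 cases in JVM2 and EHEB, and rose in 0, 0 and 3. The receptors and ATG8 genes fell in 4, 4 and 0 and rose in 1, 0 and 1. The hydrolases fell in 5, 8 and 5 and rose in 6, 3 and 0. The membrane and pump genes fell in 3, 4 and 2 and rose in 2, 5 and 2. The initiation, kinase and conjugation genes fell in 2, 1 and 0 and rose in 2, 3 and 2. The difference between roles was not tested.

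**Figure D3:**
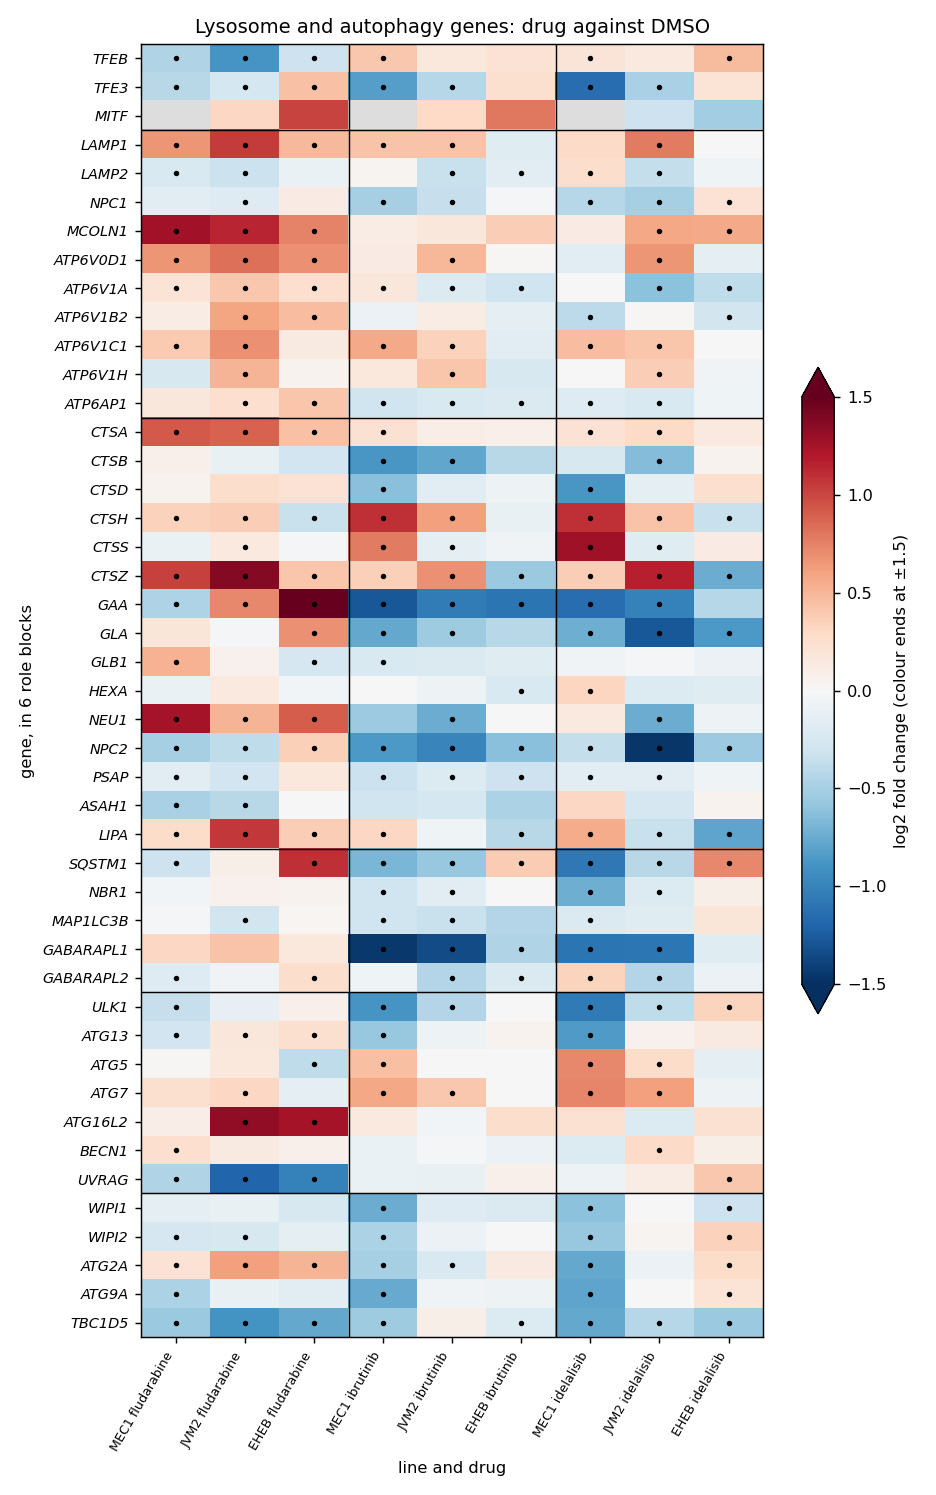
Log2 fold change against DMSO of 45 genes (rows, in 6 blocks by role) in 9 comparisons (columns, 3 drugs in 3 lines), on a colour scale that ends at ±1.5, with a dot where the edgeR adjusted p was under 0.05 and grey where a gene was not tested (MITF in MEC1). The membrane and pump block and the hydrolase block hold most of the rises with fludarabine, and no row has the same call in all 9 columns.

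TFEB (ENSG00000112561, chromosome 6, 41683978 to 41736259, minus strand), the master factor of lysosomal genes, fell with fludarabine in each line. In MEC1 it stood at 77.1, 70.9 and 75.4 CPM with DMSO and at 58.3, 52.7 and 52.9 CPM with fludarabine, a log2 fold change (± SE) of −0.45 ± 0.062 (adjusted p = 0.000149). In JVM2 the values were 117, 126 and 115 CPM and 69.3, 63.6 and 61.5 CPM, a change of −0.88 ± 0.064 (adjusted p = 9.36e-07). The treated and DMSO libraries did not overlap in either line, and JVM2 had the largest fall of the 3. In EHEB 109, 129 and 138 CPM with DMSO stood against 107, 94.999 and 102 CPM, which do not overlap either, with a change of −0.31 ± 0.092 (adjusted p = 0.0210). There TFEB lost its fludarabine call in EHEB once any of the libraries DMSO b, DMSO c or fludarabine b was left out (adjusted p = 0.0577 to 0.0746).

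With the inhibitors TFEB was higher than with DMSO where a call was made. In MEC1 with ibrutinib it stood at 100.9, 93.9 and 100.2 CPM, a log2 fold change of 0.40 ± 0.061 (adjusted p = 0.000267), and in EHEB with idelalisib at 157, 185.4 and 183 CPM, a change of 0.48 ± 0.092 (adjusted p = 0.00211). All treated libraries lay above all DMSO libraries in both. In MEC1 with idelalisib the change was 0.19 ± 0.061 (adjusted p = 0.0219), and TFEB lost its idelalisib call in MEC1 once any of the libraries DMSO b, idelalisib a or idelalisib c was left out (adjusted p = 0.0810 to 0.113). In JVM2 the changes of 0.16 ± 0.063 with ibrutinib and 0.14 ± 0.063 with idelalisib did not pass the test.

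TFE3 (chromosome X, 49028726 to 49043410, minus strand), which binds the same element as TFEB, fell with all 3 drugs in MEC1 and JVM2. In MEC1 it went from 60.8, 63.2 and 62.4 CPM with DMSO to 47.8, 45.5 and 46.6 with fludarabine, 36.8, 31.1 and 37.1 with ibrutinib and 28.1, 29.1 and 27.3 CPM with idelalisib. Each treated group lay below DMSO without overlap, and the idelalisib libraries were the lowest. The log2 fold changes were −0.41 ± 0.073 (adjusted p = 0.000766), −0.83 ± 0.073 (adjusted p = 4.58e-06) and −1.14 ± 0.074 (adjusted p = 2.92e-07). Scaled by library size, the fludarabine value in MEC1 was −0.17 (adjusted p = 0.131) and that in JVM2 −0.063 (adjusted p = 0.297), so both of these calls rest on the normalisation. In JVM2 the changes were −0.26 ± 0.050 (adjusted p = 0.00134), −0.43 ± 0.050 (adjusted p = 0.000120) and −0.48 ± 0.050 (adjusted p = 2.18e-05). EHEB had the opposite sign, with 48.1, 49.8 and 55.1 CPM under DMSO and 68.5, 66.8 and 71.5 CPM under fludarabine, which do not overlap and differ by 0.43 ± 0.081 (adjusted p = 0.00138). MITF, the third factor of the family, stayed at or under 1.495 CPM in every library and passed no test against DMSO.

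Among the membrane proteins, MCOLN1 (chromosome 19, 7522624 to 7534009, plus strand) rose with fludarabine in each line although its level was low. It went from 4.91, 5.58 and 3.18 CPM to 10.003, 11.501 and 11.3 CPM in MEC1, from 3.97, 3.73 and 4.43 CPM to 8.17, 8.97 and 9.65 CPM in JVM2 and from 6.63, 6.41 and 7.80 CPM to 10.8, 10.97 and 13.2 CPM in EHEB. No treated library overlapped its DMSO libraries, and the MEC1 level had a log2 fold change of 1.26 ± 0.21 (adjusted p = 0.000507). The changes in JVM2 and EHEB were 1.14 ± 0.13 (adjusted p = 3.37e-05) and 0.75 ± 0.16 (adjusted p = 0.00330). With idelalisib it also rose in JVM2, by 0.58 ± 0.13 (adjusted p = 0.00453), and in EHEB, by 0.57 ± 0.16 (adjusted p = 0.0183), where MCOLN1 lost its idelalisib call in EHEB once any of the libraries DMSO a, DMSO b or idelalisib c was left out (adjusted p = 0.0595 to 0.0778). PNPLA6, which shares exon bases with MCOLN1 on the same strand, changed by −0.30, 0.12 and −0.040 with fludarabine in MEC1, JVM2 and EHEB.

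LAMP1 (chromosome 13, 113297239 to 113323672, plus strand), a main glycoprotein of the lysosomal membrane, rose with fludarabine from 107, 102 and 95.9 CPM to 161, 159 and 161 CPM in MEC1, from 131, 107 and 131 CPM to 258, 251.3 and 256 CPM in JVM2 and from 303, 303 and 295 CPM to 445, 358 and 463 CPM in EHEB. The groups did not overlap in any line. The log2 fold changes were 0.66 ± 0.12 (adjusted p = 0.00128), 1.05 ± 0.094 (adjusted p = 4.89e-06) and 0.49 ± 0.10 (adjusted p = 0.00286). In JVM2 it rose with both inhibitors as well, by 0.43 ± 0.094 (adjusted p = 0.00577) and 0.77 ± 0.094 (adjusted p = 6.55e-05). In MEC1 the ibrutinib change was 0.43 ± 0.12 (adjusted p = 0.0143), and LAMP1 lost its ibrutinib call in MEC1 once any of the libraries DMSO c or ibrutinib a was left out (adjusted p = 0.0535 to 0.0649), while in EHEB neither inhibitor moved it past the test.

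LAMP2, its partner and the receptor of chaperone-mediated autophagy, behaved differently from LAMP1. In JVM2 it fell with all 3 drugs, from 157, 170.2 and 168 CPM to 137, 137 and 122 with fludarabine, 137, 125 and 129 with ibrutinib and 129.9, 127 and 128 CPM with idelalisib. All 9 treated libraries lay below the 3 DMSO libraries, with log2 fold changes of −0.32 ± 0.058 (adjusted p = 0.000892), −0.34 ± 0.058 (adjusted p = 0.00136) and −0.36 ± 0.058 (adjusted p = 0.000429). In MEC1 it was −0.23 ± 0.072 (adjusted p = 0.0233) with fludarabine and 0.26 ± 0.072 (adjusted p = 0.00981) with idelalisib. The former was 0.020 (adjusted p = 0.837) with library size scaling, and LAMP2 lost its fludarabine call in MEC1 once any of the libraries DMSO b, fludarabine a or fludarabine c was left out (adjusted p = 0.0506 to 0.0871). Under that scaling the idelalisib call was lost too at 0.16 (adjusted p = 0.0745).

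The proton pump that acidifies the lysosome rose in part. ATP6V0D1 (chromosome 16, 67438014 to 67481181, minus strand), a subunit of its membrane sector, went with fludarabine from 41.7, 39.5 and 41.3 CPM to 72.2, 52.9 and 69.4 CPM in MEC1, from 42.7, 40.9 and 42.7 CPM to 87.1, 51.3 and 85.5 CPM in JVM2 and from 80.9, 64.3 and 82.2 CPM to 131, 116 and 119 CPM in EHEB. No groups overlapped, but fludarabine b of JVM2 stood well below the other two. The changes were 0.67 ± 0.19 (adjusted p = 0.0150), 0.83 ± 0.17 (adjusted p = 0.00187) and 0.68 ± 0.11 (adjusted p = 0.000579). Without fludarabine b the JVM2 value was 1.04 (adjusted p = 9.23e-06), and ATP6V0D1 lost its fludarabine call in MEC1 once library fludarabine a was left out (adjusted p = 0.0561). In JVM2 ibrutinib gave 0.50 ± 0.17 (adjusted p = 0.0434), and ATP6V0D1 lost its ibrutinib call in JVM2 once any of the libraries DMSO a, DMSO b, DMSO c, ibrutinib b or ibrutinib c was left out (adjusted p = 0.0910 to 0.116).

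ATP6V1A, the catalytic subunit of the pump, also rose with fludarabine in each line, by 0.21 ± 0.055 (adjusted p = 0.00889), 0.40 ± 0.042 (adjusted p = 1.48e-05) and 0.25 ± 0.061 (adjusted p = 0.00774). With idelalisib it fell in JVM2, from 264, 266 and 258 CPM with DMSO to 167, 174 and 173 CPM, without overlap and by −0.62 ± 0.042 (adjusted p = 9.06e-07), and in EHEB by −0.39 ± 0.062 (adjusted p = 0.000623). The same gene was at −0.0054 ± 0.055 in MEC1 with idelalisib, which did not pass the test. ATP6AP1, an accessory subunit, was the only pump gene lower with ibrutinib in all 3 lines, at −0.30 ± 0.069, −0.23 ± 0.064 and −0.22 ± 0.057. Of these, ATP6AP1 lost its ibrutinib call in JVM2 once any of the libraries DMSO b, ibrutinib a or ibrutinib c was left out (adjusted p = 0.0573 to 0.124), and ATP6AP1 lost its ibrutinib call in EHEB once any of the libraries DMSO a, DMSO b, ibrutinib a or ibrutinib b was left out (adjusted p = 0.0798 to 0.0949). NPC1, the cholesterol exporter of the lysosomal membrane, fell with both inhibitors in MEC1 (−0.50 ± 0.061 and −0.42 ± 0.061) and JVM2 (−0.34 ± 0.068 and −0.50 ± 0.068).

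Among the hydrolases, the carboxypeptidase cathepsin Z (CTSZ, chromosome 20, 58985686 to 59008238, minus strand) rose with fludarabine in each line and then parted between lines with the inhibitors. With fludarabine it went from 29.2, 29.4 and 29.6 CPM to 60.5, 57.3 and 61.4 CPM in MEC1 and from 27.1, 27.4 and 27.3 CPM to 73.1, 68.2 and 71.3 CPM in JVM2, and from 78.4, 77.2 and 81.5 CPM to 117, 104 and 96.2 CPM in EHEB. All treated libraries lay above DMSO, at log2 fold changes of 1.02 ± 0.083 (adjusted p = 3.04e-06), 1.38 ± 0.080 (adjusted p = 1.52e-07) and 0.42 ± 0.082 (adjusted p = 0.00196). With idelalisib JVM2 rose to 57.2, 66.3 and 59.2 CPM and EHEB fell to 48.5, 48.5 and 45.1 CPM, again without overlap with DMSO. The idelalisib changes in MEC1, JVM2 and EHEB were 0.36 ± 0.083 (adjusted p = 0.00304), 1.16 ± 0.080 (adjusted p = 9.85e-07) and −0.74 ± 0.083 (adjusted p = 4.96e-05), and the ibrutinib changes had the same signs (0.36 ± 0.083, 0.68 ± 0.079 and −0.56 ± 0.083). NELFCD, which shares exon bases with CTSZ on the opposite strand, rose in JVM2 by 0.59, 0.84 and 0.73 with fludarabine, ibrutinib and idelalisib.

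CTSA (chromosome 20, 45890144 to 45898949, plus strand) encodes the protective protein cathepsin A, which holds the sialidase NEU1 in a complex. It rose with fludarabine from 31.01, 34.0 and 30.9 CPM to 64.0, 58.2 and 58.8 CPM in MEC1, from 47.4, 49.2 and 53.1 CPM to 93.6, 90.2 and 92.5 CPM in JVM2 and from 85.1, 76.2 and 76.7 CPM to 106, 106 and 111 CPM in EHEB, without overlap. The changes were 0.92 ± 0.080 (adjusted p = 4.83e-06), 0.88 ± 0.070 (adjusted p = 1.91e-06) and 0.44 ± 0.060 (adjusted p = 0.000154). NEU1 (chromosome 6, 31857659 to 31862905, minus strand) rose too, from 29.2, 31.4 and 31.2 CPM to 42.6, 45.8 and 42.1 CPM in JVM2 and from 23.6, 22.9 and 25.0 CPM to 44.7, 46.1 and 43.2 CPM in EHEB, by 0.51 ± 0.058 (adjusted p = 3.08e-05) and 0.90 ± 0.23 (adjusted p = 0.00980). In MEC1 its fludarabine libraries were uneven, at 59.9, 56.3 and 114 CPM against 35.7, 31.8 and 29.3 CPM with DMSO. There the change of 1.25 ± 0.29 (adjusted p = 0.00464) became 0.84 (adjusted p = 0.0174) without fludarabine c. In JVM2 NEU1 fell with both inhibitors, by −0.75 ± 0.059 and −0.75 ± 0.058.

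GAA (chromosome 17, 80101533 to 80119881, plus strand) changed in opposite directions with fludarabine. In MEC1 it fell from 78.98, 72.2 and 72.6 CPM to 54.0, 50.9 and 57.1 CPM, by −0.47 ± 0.086 (adjusted p = 0.00109), although with library size scaling this value was −0.22 (adjusted p = 0.0865). In JVM2 it rose from 24.4, 24.9 and 28.0 CPM to 44.8, 42.8 and 40.1 CPM, by 0.72 ± 0.12 (adjusted p = 0.000420), and in EHEB from 7.52, 6.84 and 7.43 CPM to 21.9, 15.2 and 24.5 CPM, by 1.5 ± 0.19 (adjusted p = 9.62e-05). With ibrutinib it fell in all 3 lines, to 34.1, 27.3 and 31.1 in MEC1, 14.1, 12.6 and 10.8 in JVM2 and 3.64, 3.11 and 3.45 CPM in EHEB, below every DMSO library. The changes were −1.27 ± 0.087 (adjusted p = 7.91e-07), −1.04 ± 0.12 (adjusted p = 0.000106) and −1.09 ± 0.20 (adjusted p = 0.00285). Idelalisib gave −1.15 ± 0.087 and −1.01 ± 0.12 in MEC1 and JVM2, both called, and −0.43 ± 0.19 in EHEB, which did not pass the test.

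NPC2, the small protein that hands cholesterol to NPC1, fell with both inhibitors in every line. In JVM2 it stood at 71.6, 76.5 and 89.0 CPM with DMSO, 40.2, 39.2 and 40.0 with ibrutinib and 29.5, 27.5 and 28.9 CPM with idelalisib. Every treated library of the 3 lines lay below its DMSO libraries. The log2 fold changes were −0.87 ± 0.12 (adjusted p = 0.000124), −0.99 ± 0.090 (adjusted p = 2.61e-05) and −0.63 ± 0.092 (adjusted p = 0.000801) with ibrutinib and −0.36 ± 0.12 (adjusted p = 0.0231), −1.46 ± 0.091 (adjusted p = 4.56e-07) and −0.54 ± 0.092 (adjusted p = 0.000915) with idelalisib in MEC1, JVM2 and EHEB. Of these, NPC2 lost its idelalisib call in MEC1 once any of the libraries DMSO a, DMSO c or idelalisib b was left out (adjusted p = 0.0517 to 0.0806). With fludarabine it fell in MEC1 (−0.50 ± 0.12) and JVM2 (−0.38 ± 0.089) and rose in EHEB (0.36 ± 0.092). With library size scaling the fludarabine values in MEC1 and JVM2 were −0.25 (adjusted p = 0.0688) and −0.18 (adjusted p = 0.0635), and NPC2 lost its fludarabine call in EHEB once library fludarabine c was left out (adjusted p = 0.0512). ISCA2 on the opposite strand shares exon bases with it and changed by 0.64, −0.58 and −0.66 with idelalisib.

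GLA, the alpha-galactosidase that is deficient in Fabry disease, was another gene lower with idelalisib in each line. It went from 24.7, 22.3 and 23.1 CPM to 17.1, 12.2 and 13.1 CPM in MEC1, from 8.90, 10.6 and 10.3 CPM to 4.36, 4.35 and 3.71 CPM in JVM2 and from 11.4, 11.02 and 8.52 CPM to 5.28, 6.70 and 5.05 CPM in EHEB, in no case with overlap. The changes were −0.73 ± 0.16 (adjusted p = 0.00214), −1.27 ± 0.11 (adjusted p = 4.16e-06) and −0.86 ± 0.14 (adjusted p = 0.000669). RPL36A, which shares exon bases with GLA on the opposite strand, had 3172 to 13538 counts. It changed by 0.38, −0.53 and −0.21 with idelalisib in MEC1, JVM2 and EHEB, and its part in the GLA values was not tested. PSAP, at 1267 to 1320 CPM with DMSO in MEC1, fell by small amounts with ibrutinib in each line, by −0.32 ± 0.050 (adjusted p = 0.000282), −0.21 ± 0.047 (adjusted p = 0.00660) and −0.31 ± 0.067 (adjusted p = 0.00726). CTSD, the aspartic protease cathepsin D and a common lysosomal marker, changed past the test only in MEC1 among the 9 comparisons with DMSO, from 111, 103 and 100.6 CPM to 74.6, 65.7 and 63.7 with ibrutinib and 50.3, 51.2 and 69.8 CPM with idelalisib. These groups lay below DMSO, at −0.62 ± 0.13 (adjusted p = 0.00262) and −0.88 ± 0.14 (adjusted p = 0.000201).

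CTSH and CTSS rose with both inhibitors in MEC1. CTSH rose from 151, 130.4 and 127 CPM to 289, 283 and 304 with ibrutinib and 303, 267 and 302 CPM with idelalisib, and CTSS from 106, 90.7 and 100.6 CPM to 157, 174 and 179.9 and 257, 217 and 245 CPM. All of these libraries lay above DMSO, and for CTSS the idelalisib libraries also lay above those of ibrutinib. The changes were 1.10 ± 0.12 (adjusted p = 2.17e-05) and 1.09 ± 0.12 (adjusted p = 1.52e-05) for CTSH and 0.78 ± 0.081 (adjusted p = 1.45e-05) and 1.28 ± 0.082 (adjusted p = 2.78e-07) for CTSS. In JVM2 CTSH rose with all 3 drugs (0.37 ± 0.086, 0.62 ± 0.087 and 0.42 ± 0.086), while CTSS fell slightly with the inhibitors (−0.13 ± 0.045 and −0.19 ± 0.045). Of these, CTSS lost its ibrutinib call in JVM2 once any of the libraries DMSO b, DMSO c, ibrutinib a, ibrutinib b or ibrutinib c was left out (adjusted p = 0.0523 to 0.263), and with library size scaling the value with idelalisib was −0.084 (adjusted p = 0.194). In EHEB CTSH fell with fludarabine (−0.34 ± 0.083) and idelalisib (−0.34 ± 0.083), and no CTSS change passed the test. In MEC1 the monocyte gene ITGAM, which macrophages share with some B cells, stood at 5.98 to 7.72 CPM with DMSO and 41.98 to 44.61 CPM with idelalisib, and its part in the CTSS result was not tested.

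LIPA, which frees cholesterol and fatty acids inside lysosomes, rose with fludarabine in each line, most in JVM2, where it went from 126, 126 and 133.5 CPM to 278, 255 and 269.9 CPM. The changes were 0.27 ± 0.071 (adjusted p = 0.00895), 1.06 ± 0.058 (adjusted p = 9.41e-08) and 0.36 ± 0.065 (adjusted p = 0.00106). With idelalisib it rose in MEC1 (0.56 ± 0.071 (adjusted p = 5.16e-05)) and fell in JVM2 (−0.33 ± 0.057 (adjusted p = 0.000742)) and EHEB (−0.79 ± 0.066 (adjusted p = 5.04e-06)), the last from 154, 148 and 137 CPM to 89.2, 80.0 and 83.3 CPM. None of these groups overlapped DMSO. IFIT2 and IFIT3, interferon-induced genes, share exon bases with LIPA on the opposite strand. With fludarabine they changed by 0.44 and 0.18 in MEC1, 1.76 and 2.76 in JVM2, and 0.16 and 0.83 in EHEB. All of these but IFIT2 in EHEB were called. With idelalisib IFIT3 rose by 1.785 in MEC1, and both genes were higher in JVM2, where LIPA fell. In EHEB with idelalisib IFIT2 was lower, by −0.42. Without known strand, their reads cannot be told apart from those of LIPA in any of these comparisons. Their part in the LIPA values was not tested.

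SQSTM1 (chromosome 5, 179806398 to 179838078, plus strand) encodes p62, the receptor that links ubiquitinated cargo to the autophagosome and is itself degraded by autophagy. It had the clearest split between lines. In MEC1 it fell from 184.1, 173 and 199 CPM with DMSO to 145, 151 and 153 with fludarabine, 120.3, 106 and 118 with ibrutinib and 87.1, 87.6 and 89.7 CPM with idelalisib. In EHEB it rose from 235, 239.4 and 245 CPM to 489, 529 and 520.4, 295, 299.9 and 341 and 391, 390.2 and 400.5 CPM. Every treated library lay below DMSO in MEC1 and above it in EHEB. The log2 fold changes with fludarabine, ibrutinib and idelalisib were −0.31 ± 0.065 (adjusted p = 0.00254), −0.69 ± 0.065 (adjusted p = 7.63e-06) and −1.07 ± 0.066 (adjusted p = 2.15e-07) in MEC1 and 1.10 ± 0.058 (adjusted p = 1.28e-07), 0.38 ± 0.058 (adjusted p = 0.000981) and 0.72 ± 0.058 (adjusted p = 4.13e-06) in EHEB. The fludarabine value in MEC1 was, under library size scaling, −0.060 (adjusted p = 0.487). In JVM2 ibrutinib gave −0.57 ± 0.044 (adjusted p = 8.88e-06), idelalisib −0.42 ± 0.044 (adjusted p = 2.25e-05) and fludarabine 0.088 ± 0.044, which did not pass the test. MGAT4B and MRNIP share exon bases with SQSTM1 on the opposite strand. With fludarabine, ibrutinib and idelalisib MGAT4B changed by −0.39, −0.65 and −0.58 in MEC1, all called. In EHEB it changed by −0.27, −0.27 and 0.15, not called. MRNIP rose by 1.73, 0.83 and 1.66 in JVM2, all called, and by 0.93, 1.21 and 1.06 in EHEB, not called. Their part in the SQSTM1 values was not tested.

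GABARAPL1, an ATG8 protein that coats the autophagosome membrane, fell with the inhibitors from a low level. It went from 11.4, 10.97 and 11.497 CPM to 5.12, 2.95 and 4.29 with ibrutinib and 5.40, 4.92 and 5.58 CPM with idelalisib in MEC1, and from 2.85, 4.11 and 2.66 CPM to 1.56, 1.21 and 0.997 and 1.49, 2.004 and 1.07 CPM in JVM2. These groups did not overlap DMSO. The ibrutinib changes were −1.45 ± 0.17 (adjusted p = 3.37e-05), −1.34 ± 0.28 (adjusted p = 0.00414) and −0.45 ± 0.13 (adjusted p = 0.0357) in MEC1, JVM2 and EHEB, and GABARAPL1 lost its ibrutinib call in EHEB once any of the libraries DMSO a, DMSO b, DMSO c, ibrutinib b or ibrutinib c was left out (adjusted p = 0.0670 to 0.131). With idelalisib MEC1 and JVM2 gave −1.09 ± 0.17 (adjusted p = 0.000191) and −1.08 ± 0.27 (adjusted p = 0.00793), and EHEB −0.18 ± 0.13, which did not pass the test. Its relative GABARAPL2 went the other way with idelalisib in MEC1, from 96.9, 90.9 and 92.2 CPM to 117, 107 and 127 CPM, by 0.33 ± 0.069 (adjusted p = 0.00174), and fell in JVM2, by −0.43 ± 0.066 (adjusted p = 0.000327).

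MAP1LC3B, which encodes the LC3B protein used to count autophagosomes, changed little. In MEC1 ibrutinib took it from 106, 108 and 111 CPM to 85.8, 86.8 and 92.3 CPM and idelalisib to 93.0, 92.6 and 94.7 CPM, both below DMSO, at −0.29 ± 0.061 (adjusted p = 0.00216) and −0.21 ± 0.061 (adjusted p = 0.0121). In JVM2 the changes were −0.28 ± 0.071 with fludarabine and −0.33 ± 0.071 with ibrutinib, both called, and −0.18 ± 0.071 with idelalisib, not called. With library size scaling the fludarabine value in JVM2 was −0.079 (adjusted p = 0.242). In EHEB the ibrutinib libraries were uneven, at 29.3, 59.9 and 65.7 CPM against 74.8, 69.4 and 66.3 CPM, with a change of −0.44 ± 0.22 (adjusted p = 0.198) and of −0.16 (adjusted p = 0.238) without ibrutinib a. Reads of MAP1LC3B may be shared with its near-identical copy MAP1LC3B2, which had 48 to 190 counts, and FBXO31 on the opposite strand shares exon bases and fell in all 9 comparisons.

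Among the initiation and kinase factors, UVRAG (chromosome 11, 75815210 to 76144232, plus strand), a partner of Beclin 1 in the phosphatidylinositol 3-kinase complex that matures autophagosomes and endosomes, fell with fludarabine in each line. It went from 126, 132.8 and 125 CPM to 89.9, 96.2 and 94.2 CPM in MEC1, from 169, 191.6 and 190.01 CPM to 77.5, 83.8 and 80.0 CPM in JVM2 and from 153, 148 and 148 CPM to 74.8, 70.2 and 76.8 CPM in EHEB. The groups were apart in each line, with changes of −0.46 ± 0.048 (adjusted p = 2.08e-05), −1.19 ± 0.054 (adjusted p = 2.32e-08) and −1.02 ± 0.046 (adjusted p = 4.46e-08). With idelalisib it rose in EHEB, to 199, 195 and 198 CPM, by 0.40 ± 0.045 (adjusted p = 5.06e-05).

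ATG16L2, a relative of the conjugation factor ATG16L1, rose with fludarabine in the 2 lines with wild-type p53, from 10.8, 8.71 and 9.60 CPM to 20.5, 23.0 and 29.8 CPM in JVM2 and from 15.6, 16.5 and 20.9 CPM to 38.9, 41.7 and 45.2 CPM in EHEB. Treated libraries lay above DMSO in both, at 1.33 ± 0.15 (adjusted p = 3.10e-05) and 1.25 ± 0.18 (adjusted p = 0.000243). In MEC1 the change was 0.098 ± 0.13 (adjusted p = 0.568), and the difference between lines passed the interaction test (adjusted p = 0.000249). FCHSD2, which shares exon bases with it on the opposite strand, changed by −0.41, −0.79 and −0.87 on the log2 scale with fludarabine in MEC1, JVM2 and EHEB. ULK1, the kinase that starts autophagy and is held back by mTORC1, and ATG13, its partner, fell with ibrutinib (−0.88 ± 0.084 and −0.57 ± 0.056) and idelalisib (−1.06 ± 0.085 and −0.85 ± 0.057) in MEC1. ATG7, the E1-like enzyme of ATG8 conjugation, rose with them there (0.58 ± 0.11 and 0.74 ± 0.11), as did ATG5 (0.45 ± 0.091 and 0.72 ± 0.092), and ATG7 also rose in JVM2 (0.41 ± 0.077 and 0.61 ± 0.077).

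Of the WIPI and trafficking factors, TBC1D5, a Rab7 GTPase-activating protein of the retromer that also binds LC3, was lower in 8 of the 9 comparisons with DMSO. In EHEB it went from 316, 318 and 293 CPM to 185.5, 183 and 176 with fludarabine, 267, 257 and 276 with ibrutinib and 212, 215 and 205 CPM with idelalisib, in every library below DMSO. The changes were −0.77 ± 0.048 (adjusted p = 4.24e-07), −0.21 ± 0.048 (adjusted p = 0.0101) and −0.55 ± 0.048 (adjusted p = 7.10e-06), and TBC1D5 lost its ibrutinib call in EHEB once library DMSO b was left out (adjusted p = 0.0548). In JVM2 fludarabine gave −0.90 ± 0.15 (adjusted p = 0.000468), whereas ibrutinib gave 0.093 ± 0.15, the comparison that was not called.

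A single library set several TBC1D5 values. In MEC1 with fludarabine the libraries stood at 189, 194 and 102 CPM against 233.97, 246 and 232.02 CPM, and the change of −0.55 ± 0.19 (adjusted p = 0.0317) became −0.31 (adjusted p = 0.00907) without fludarabine c. In JVM2 with idelalisib they stood at 190.6, 116 and 189 CPM, and the change of −0.43 ± 0.15 (adjusted p = 0.0340) became −0.22 (adjusted p = 0.0047) without idelalisib b. With other libraries left out, TBC1D5 lost its fludarabine call in MEC1 once any of the libraries DMSO a, DMSO b or DMSO c was left out (adjusted p = 0.0586 to 0.0752), TBC1D5 lost its idelalisib call in JVM2 once any of the libraries DMSO a, DMSO b or DMSO c was left out (adjusted p = 0.0548 to 0.0845), and TBC1D5 lost its ibrutinib call in MEC1 once any of the libraries DMSO a, DMSO b, DMSO c, ibrutinib a, ibrutinib b or ibrutinib c was left out (adjusted p = 0.0612 to 0.106). Over all of the genes described with a mean of at least 10 CPM, 7 of 497 groups had a highest library at least 1.7 times the lowest (median ratio 1.1).

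ATG2A, the lipid transfer protein that feeds the growing autophagosome, rose with fludarabine in each line, by 0.22 ± 0.074 (adjusted p = 0.0318), 0.61 ± 0.045 (adjusted p = 9.89e-07) and 0.51 ± 0.067 (adjusted p = 0.000122), and ATG2A lost its fludarabine call in MEC1 once any of the libraries DMSO a, DMSO b, DMSO c, fludarabine b or fludarabine c was left out (adjusted p = 0.0671 to 0.106). With the inhibitors it fell in MEC1 (−0.50 ± 0.074 and −0.77 ± 0.075). WIPI1 and WIPI2, which read the lipid phosphatidylinositol 3-phosphate on the forming membrane, and ATG9A, the membrane protein of the vesicles that seed it, fell with both inhibitors in MEC1 too. The changes with idelalisib there were −0.62 ± 0.068, −0.57 ± 0.061 and −0.79 ± 0.069. In EHEB idelalisib gave WIPI2 0.34 ± 0.059 and ATG9A 0.20 ± 0.065, both called higher, and ATG9A lost its idelalisib call in EHEB once any of the libraries DMSO a, DMSO c, idelalisib a or idelalisib c was left out (adjusted p = 0.0512 to 0.0996).

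**Figure D4:**
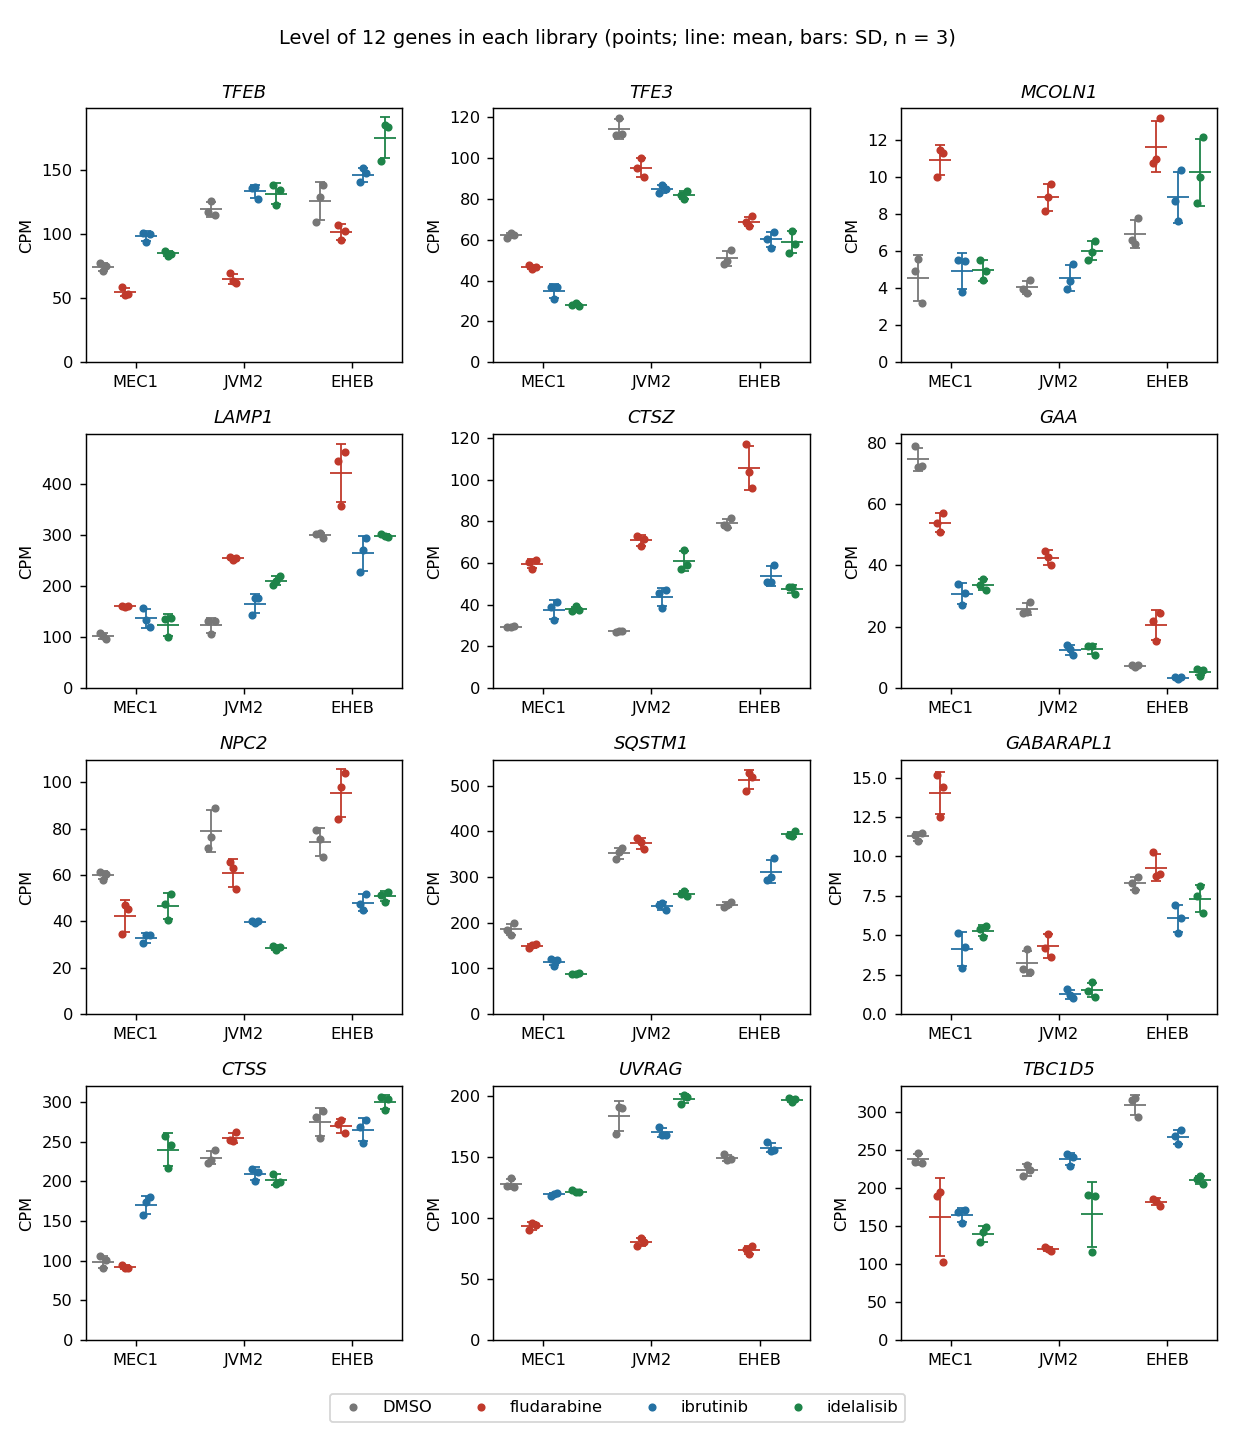
CPM in each library of 12 genes (TFEB, TFE3, MCOLN1, LAMP1, CTSZ, GAA, NPC2, SQSTM1, GABARAPL1, CTSS, UVRAG and TBC1D5) by line and treatment, with points for libraries and bars for the mean and SD (n = 3). SQSTM1 lies below DMSO in MEC1 and above it in EHEB with each drug, and UVRAG with fludarabine lies below DMSO in all 3 lines.

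Calls in the same direction in all 3 lines were most frequent for rises with fludarabine. With fludarabine 9 of the 44 genes tested in all 3 lines were higher in each (MCOLN1, NEU1, LAMP1, ATP6V0D1, CTSA, LIPA, CTSZ, ATP6V1A and ATG2A), where 5.1% of all genes tested in 3 lines were, and 3 were lower in each (TFEB, TBC1D5 and UVRAG), where 8.05% were. With ibrutinib 0 were higher in each (2.39% of all genes) and 5 were lower (GAA, NPC2, GABARAPL1, ATP6AP1 and PSAP, 3.16% of all genes). With idelalisib 0 were higher in each (4.16%) and 3 were lower (GLA, TBC1D5 and NPC2, 6%). No gene was called in the same direction in all 9 comparisons, 26 of the 47 genes were called in both directions, 9 only as higher and 9 only as lower. The shares of all genes with these patterns over 9 comparisons were not computed, so these counts describe the list and do not set it apart.

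Whether a drug's effect differed between the lines was tested directly as the interaction of line and treatment. Of the 45 genes tested, 25 differed for fludarabine, 25 for ibrutinib and 33 for idelalisib (edgeR, adjusted p under 0.05), where 39.1%, 33.6% and 45.7% of all genes did. SQSTM1 had the smallest adjusted p of the genes described for each drug (edgeR, adjusted p = 4.91e-09, adjusted p = 1.74e-06 and 1.51e-10). For fludarabine CTSZ (adjusted p = 8.62e-07) and LIPA (adjusted p = 2.13e-06) followed, for ibrutinib CTSH (adjusted p = 4.28e-06) and TFE3 (adjusted p = 8.10e-06), and for idelalisib CTSZ (adjusted p = 8.58e-10) and CTSS (adjusted p = 3.55e-08). The changes behind them are those given above for each line.

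The inhibitors were also compared with each other, which uses no DMSO library and stays within 1 range of library numbers. Idelalisib was higher than ibrutinib for 6, 7 and 8 genes and lower for 8, 5 and 2 in MEC1, JVM2 and EHEB. Of all genes, 6.01%, 8.21% and 6.77% were higher and 9.37%, 10.5% and 9.09% lower. Among genes with a mean of at least 10 CPM, 9.22%, 10.5% and 9.32% were higher and 16%, 15.7% and 13.9% lower. Of the genes described at such levels, 6 of 42, 7 of 41 and 7 of 41 were higher and 8, 4 and 2 lower. The falls in MEC1 were thus near the share of genes at such levels, and those in JVM2 and EHEB below it. No difference from these shares was tested. Under library size scaling the MEC1 split was 3 and 15, where the median of all genes moved by −0.17. With a mean CPM of at least 5 it was 10 and 8, and that of JVM2 11 and 5. In MEC1 CTSS was higher by 0.49 ± 0.081 (adjusted p = 0.00319) and SQSTM1 differed by −0.38 ± 0.065 (adjusted p = 0.00382), followed by GABARAPL2 (0.40 ± 0.069 (adjusted p = 0.00386)). In JVM2 the smallest adjusted p values belonged to ATP6V1A (−0.42 ± 0.042 (adjusted p = 6.90e-05)), GLA (−0.73 ± 0.11 (adjusted p = 0.000814)) and CTSZ (0.48 ± 0.079 (adjusted p = 0.00186)). In EHEB UVRAG (0.32 ± 0.045 (adjusted p = 0.000692)) and SQSTM1 (0.34 ± 0.058 (adjusted p = 0.00244)) were higher and TBC1D5 (−0.34 ± 0.048 (adjusted p = 0.000694)) lower. Doses differed, 5 µM for ibrutinib and 10 µM for idelalisib, so these values set 2 conditions side by side.

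The genes with and without an E-box in their window were set side by side as a description, without a test. With fludarabine 5 of the 7 genes with the core were higher in all 3 lines (MCOLN1, LAMP1, ATP6V0D1, CTSA and NEU1), against 3 of the 28 genes whose window had none. By line, 5, 6 and 6 of the 7 rose and 1, 0 and 0 fell in MEC1, JVM2 and EHEB, with median log2 fold changes of 0.67, 0.83 and 0.68. Of the genes without the core, 6 of 26, 8 of 27 and 11 of 27 rose and 10, 7 and 5 fell, with medians of −0.037, 0.068 and 0.13. With ibrutinib the medians of the 7 were 0.11, 0.10 and −0.0094, against −0.39, −0.18 and −0.071 for the genes without the core. With idelalisib they were 0.12, 0.29 and −0.0084, against −0.39, −0.20 and −0.064. The median with the core was thus the higher with each drug in each line, not only with fludarabine. The exceptions were GAA, which fell with fludarabine in MEC1, and CTSD, which did not pass the test with fludarabine in any line. The genes with the core all encode lysosomal membrane, pump or hydrolase proteins, while most of those without it belong to other roles. The contrast therefore also sets lysosomal genes against those of other roles. Among the lysosomal genes with a window and no core, CTSZ and LIPA were higher with fludarabine in all 3 lines. NPC1, ATP6AP1, CTSH, GLA, GLB1 and NPC2 were not, and CTSL was not tested. For LIPA the overlap with IFIT2 and IFIT3 given above applies here too. The parts of motif and role in the response were not tested. TFEB transcript itself was lower with fludarabine in the same libraries, and its protein and its place in the cell were not measured.

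A wider list of 122 further genes of these pathways was read from the same fits. With fludarabine 41 of 122 rose and 30 fell in MEC1, 52 of 121 and 27 in JVM2, and 35 of 121 and 20 in EHEB, and among its lysosomal genes 25 of 58 rose and 9 fell, 25 of 57 and 9, and 16 of 58 and 8. With ibrutinib 33 rose and 34 fell in MEC1, 21 and 25 in JVM2, and 10 and 22 in EHEB. With idelalisib the counts were 33 and 35, 36 and 33, and 26 and 26. By part, the list's genes for the control of mTORC1 and TFEB rose and fell with fludarabine in 6 and 10, 11 and 7, and 7 and 6 cases, with ibrutinib in 4 and 10, 4 and 7, and 3 and 6, and with idelalisib in 3 and 14, 7 and 10, and 3 and 7. Its autophagy genes did so with fludarabine in 10 and 11, 16 and 11, and 12 and 6 cases, with ibrutinib in 11 and 7, 9 and 4, and 2 and 3, and with idelalisib in 10 and 10, 12 and 5, and 10 and 4. Its lysosomal genes rose and fell with ibrutinib in 18 and 17, 8 and 14, and 5 and 13 cases and with idelalisib in 20 and 11, 17 and 18, and 13 and 15. Of all genes tested, 21.2%, 23.9% and 18.4% rose and 22.7%, 23.3% and 19.2% fell with fludarabine in MEC1, JVM2 and EHEB. With ibrutinib 23.7%, 14.5% and 8.5% rose and 23.9%, 15% and 11.2% fell. With idelalisib 27.6%, 21.6% and 15.1% rose and 27.4%, 22.6% and 18.2% fell. The counts of the whole list with idelalisib in MEC1 were near these shares, and no difference from them was tested. The median log2 fold change of its lysosomal genes with fludarabine was 0.33, 0.30 and 0.13, against 0.056, 0.056 and 0.020 over all genes.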

How the data were processed

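Gene counts of 36 RNA-seq libraries were analysed, 3 for each of 4 treatments in 3 cell lines, with groups read from the sample titles. The deposited values are expected counts per gene symbol, which the authors made with StringTie 1.3.4 after trimming with Trimmomatic and alignment to hg38 with HISAT2 2.1, on an Ensembl annotation. The selection of RNA, the strand, the read length and the annotation release are each not given in the sources used here. All values were whole numbers, so rounding changed nothing, and values of 3, 6, 8, 11 and 14 were each more frequent than their neighbours. A fit on counts divided by 8/3 was therefore added after the data were seen. An entry with a blank symbol (0.00384% of counts) was left out, and 6020 symbols held only zeros.

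The main test was the quasi-likelihood F-test of edgeR 4.0.16 (R 4.3.3), run on the 12 libraries of a line after TMM normalisation and the filterByExpr filter (a minimum of 10 counts and a total of 15). The Benjamini-Hochberg adjustment covered every gene tested in a fit, and a gene was called at an adjusted p under 0.05. For differences between lines, the interaction of line and treatment was tested on 18 libraries, and DMSO levels on 9 libraries. CPM are scaled by the TMM library size of the line's fit. The alternatives were limma-voom (limma 3.58.1), DESeq2 1.42.0, DESeq2 size factors, scaling by library size, no filter, a mean CPM of at least 5, fits of only the 6 libraries compared, a joint fit of 36 libraries and each library left out. Gene positions are from GENCODE 44 on GRCh38 and promoter windows from RefSeq. Total counts of 26590705 to 53538925 per library bear on precision for genes such as GABARAPL1 and MCOLN1 at a few CPM. Figures were drawn with matplotlib 3.10.9. The scripts were tested on simulated data.

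The 47 genes, their roles and the wider list were chosen with earlier results of these data known. Written out with values are the TFEB family, the 2 largest rises and falls per comparison with DMSO among called genes without overlap and with a mean log2 CPM not under 1, up to 5 genes per drug called alike in all 3 lines, the markers SQSTM1, MAP1LC3B, GABARAPL1, LAMP1, LAMP2 and CTSD, and the 3 smallest adjusted p of the idelalisib against ibrutinib and interaction tests. Of the wider list, at most 2 genes per comparison are named, by the largest change, and 1 gene that this would name is not reported here. Genes named beyond this rule (CTSA, NPC1, ATG2A, ULK1, ATG13, ATG5, ATG7, WIPI1, WIPI2 and ATG9A) were chosen after their values were seen.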

Additional observations from a re-analysis of the deposited data

Results flagged for a closer look

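The effect of a drug differed between the lines, by the interaction test in edgeR, for 25 of 45 genes with fludarabine, 25 with ibrutinib and 33 with idelalisib. With fludarabine the smallest adjusted p values were 4.91e-09 for SQSTM1, 8.62e-07 for CTSZ and 2.13e-06 for LIPA. SQSTM1 fell in MEC1 and rose in EHEB, while CTSZ and LIPA rose in all 3 lines by unequal amounts. With ibrutinib they were 1.74e-06 for SQSTM1, 4.28e-06 for CTSH and 8.10e-06 for TFE3. Here SQSTM1 fell in MEC1 and JVM2 and rose in EHEB, CTSH rose in MEC1 and JVM2, and TFE3 fell in those 2 lines. With idelalisib they were 1.51e-10 for SQSTM1, 8.58e-10 for CTSZ and 3.55e-08 for CTSS. CTSZ rose in MEC1 and JVM2 and fell in EHEB, and CTSS rose in MEC1 and fell in JVM2. Line, p53 status and exposure time cannot be told apart in these differences.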

How the results depend on the processing

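No paired analysis was possible because the library numbers are not shared between groups. The cause of the changes listed here was not tested. The count of genes called for idelalisib against ibrutinib in MEC1 was 9 in place of 14 with a fit of only the 6 libraries, and in EHEB 18 with DESeq2 and 17 with a mean CPM of at least 5, in place of 10. For ibrutinib in EHEB it was 8 in place of 13 with no filter on low counts. With library size scaling the fludarabine values in MEC1 changed sign for LAMP2 (0.020), GABARAPL2 (0.058), MAP1LC3B (0.22) and PSAP (0.093), and in JVM2 for NPC1 (0.0035). ATP6V1A with idelalisib in MEC1 was 0.12 with a mean CPM of at least 5, and NEU1 for idelalisib against ibrutinib in EHEB ran from −0.27 to 0.38 with 1 library left out, with 0.38 (adjusted p = 0.0279) without ibrutinib c.

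With 1 library left out, the genes called with fludarabine were 21 to 25 in MEC1 (28 with all libraries), 28 to 29 in JVM2 (30) and 22 to 26 in EHEB (25). With ibrutinib they were 27 to 30 (32), 21 to 26 (26) and 7 to 13 (13), and with idelalisib 29 to 32 (32), 26 to 30 (30) and 15 to 18 (18). For idelalisib against ibrutinib they were 7 to 13 (14), 6 to 7 (12) and 6 to 14 (10). The interaction tests gave 24 to 28 (25), 21 to 25 (25) and 31 to 34 (33) for fludarabine, ibrutinib and idelalisib, and the DMSO comparisons 35 to 36 (35), 34 to 37 (36) and 32 to 34 (35). The count for ibrutinib in EHEB was 7 without DMSO b and 8 without ibrutinib b. For idelalisib against ibrutinib it was 6 in EHEB without idelalisib c, 7 to 9 in MEC1 without ibrutinib a or c or idelalisib a or c, and 6 to 7 in JVM2 without any 1 library.

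Over all genes, comparisons and alternatives that kept every library, 6572 of 6952 values kept their direction and call, 154 lost a call, 220 gained one and 6 changed sign. With a library left out these were 6076, 312, 67 and 1 of 6456.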

Other observations

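Among the 122 further genes of these pathways, those with the largest changes included controls of mTORC1. Sestrins are stress-induced proteins that hold mTORC1 back. SESN2 fell in MEC1 with ibrutinib (log2 fold change −2.24 ± 0.096, edgeR adjusted p = 3.57e-08) and idelalisib (−2.39 ± 0.097, adjusted p = 2.23e-08). In JVM2 SESN1, a p53 target, rose with fludarabine (1.88 ± 0.074, adjusted p = 8.85e-09) and fell with ibrutinib (−1.02 ± 0.074, adjusted p = 6.73e-06) and idelalisib (−1.59 ± 0.075, adjusted p = 7.54e-08), and SESN3 rose with fludarabine (1.76 ± 0.077, adjusted p = 1.82e-08). DDIT4, another inhibitor of mTORC1, fell in EHEB with idelalisib (−2.47 ± 0.092, adjusted p = 3.23e-08) and was lower there than with ibrutinib (−1.11 ± 0.089, adjusted p = 1.93e-05). BNIP3L, a receptor for the autophagy of mitochondria, fell in EHEB with all 3 drugs, by −1.81 ± 0.072 with fludarabine, −1.72 ± 0.072 with ibrutinib and −1.68 ± 0.072 with idelalisib.

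Among lysosomal genes outside the 47, ARSB, which encodes the sulfatase arylsulfatase B, was higher with fludarabine in MEC1 (1.495 ± 0.12, adjusted p = 2.35e-06). CTSO, a cysteine protease, rose with idelalisib in MEC1 (1.53 ± 0.10, adjusted p = 4.21e-07). In JVM2 SCARB2, a membrane protein of the lysosome, rose with idelalisib (1.99 ± 0.44, adjusted p = 0.0039), and CLN3 with ibrutinib (0.93 ± 0.12, adjusted p = 0.000317). TPCN2, an endolysosomal cation channel, rose with fludarabine (1.97 ± 0.56, adjusted p = 0.0162) and fell with ibrutinib (−2.34 ± 0.58, adjusted p = 0.0168) in EHEB. TFEC, a relative of TFEB, fell with ibrutinib in MEC1 (−2.11 ± 0.33, adjusted p = 0.000327). These values were not recomputed with single libraries left out, and the drugs of a line share its DMSO libraries.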
